A study of Mus musculus with 4 samples.

Results

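The integrated stress response core described here is a set of 10 genes: 3 kinases that phosphorylate the translation factor eIF2α (Eif2ak1, Eif2ak3, Eif2ak4), 2 phosphatase subunits that reverse it (Ppp1r15a, Ppp1r15b), and the genes of the ATF4-CHOP arm downstream (Atf4, Atf5, Ddit3, Trib3, Chac1). They were chosen by name, as a list of pathway genes, out of 55487 gene IDs in the count table. Earlier results of these data were known at that point, also for the related lists, so the shares of all genes given below serve for description only. Eif2ak2, the gene of a further eIF2α kinase, is not part of the set. All 10 were found in the table, and all 10 passed the filter on low counts, as did 19194 genes in all. RNA came from mouse colon ILC2s (innate lymphoid cells of group 2), tissue-resident lymphocytes that make type 2 cytokines, which were sorted and kept in culture with the alarmins IL-33 and IL-25 together with IL-7 and IL-2. In 2 libraries the culture was also exposed to FK866 for 16 hours, and 2 control libraries were not labelled with any inhibitor. FK866 is a small-molecule inhibitor of NAMPT, the enzyme that recycles nicotinamide into NAD+. The labels give neither strain, sex nor age, and do not say whether the replicates are separate cultures, animals or pools, so the p-values below rest on the variation among 4 libraries, which may be technical.

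Cells under stress slow protein synthesis through this pathway. Each kinase of the set senses a different condition. HRI, the product of Eif2ak1, responds to heme shortage and to mitochondrial stress. PERK (Eif2ak3) responds to unfolded protein in the endoplasmic reticulum, and GCN2 (Eif2ak4) to uncharged tRNA. Phosphorylated eIF2α lowers general translation while the mRNA of Atf4, through upstream open reading frames, is translated better. ATF4 protein then acts with other leucine zipper proteins on genes of amino acid supply and stress, and Ppp1r15a closes the loop by recruiting a phosphatase to eIF2α. The measurements below are of transcripts, so neither kinase activity nor ATF4 protein was measured.

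FK866 libraries held more transcript of 5 of the 10 genes (Ppp1r15a, Atf4, Ddit3, Trib3 and Chac1), and none of the 10 was called lower. The rises were about 4-fold for Trib3 and Chac1, near 2.5-fold for Ppp1r15a and Ddit3 and 1.41-fold for Atf4. The 3 kinase genes, Ppp1r15b and Atf5 did not pass the test. The threshold for a call was an adjusted p of 0.05 (Benjamini-Hochberg, over all 19194 genes) in edgeR's quasi-likelihood test, and that rule called 13.2% of all genes, 5.31% higher and 7.89% lower. The 10 genes had a median log2 fold change of 0.56, against 0.03 for all genes tested. In 8 of the 10, both FK866 libraries lay above both control libraries, which was so for 28.4% of all genes. In none did both lie below (29.3% of all genes), and 57.7% of all genes lay apart in either direction. Atf5, which counts in the median and among the 8, passed the filter on low counts only through its FK866 libraries. Its place above the controls was thereby favoured in advance and adds no support. At an unadjusted p under 0.05 edgeR also found 5 higher and 0 lower, where 12.1% of all genes were higher and 15.9% lower. DESeq2 called 5 higher and 0 lower of the 9 core genes to which it gave an adjusted p, and among the 12496 genes with one it called 11.9% higher and 15.2% lower.

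**Figure D1:**
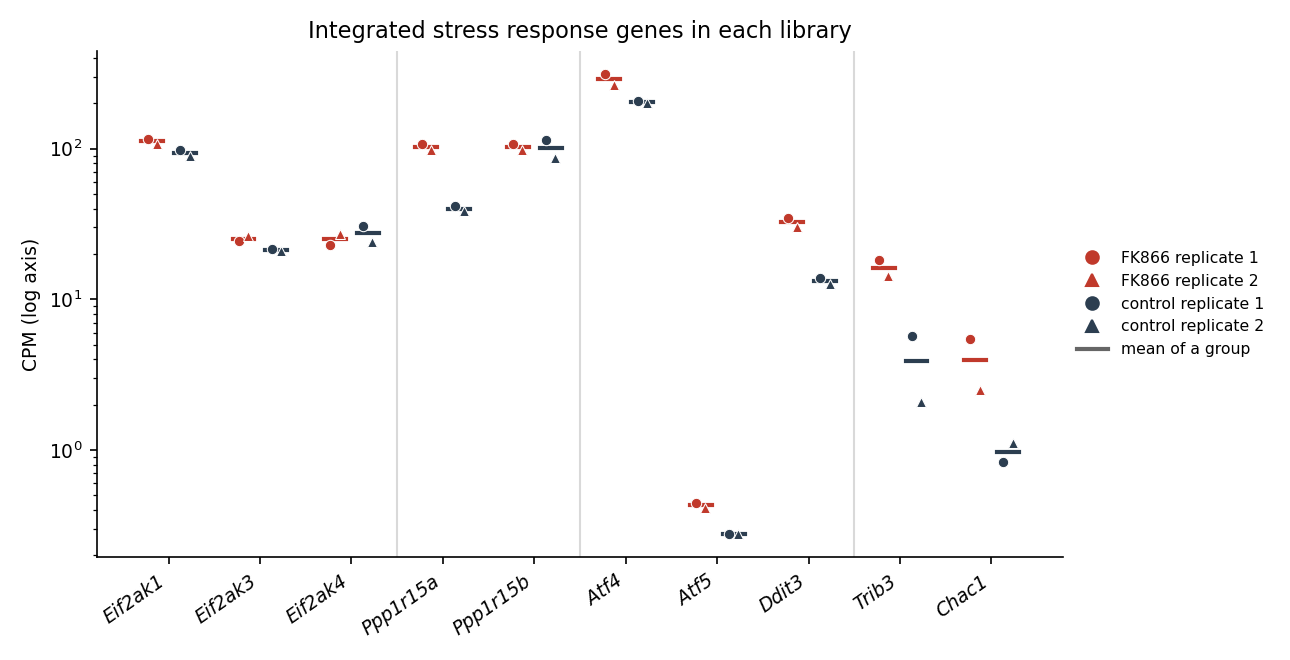
Level of each of the 10 genes in each library, in CPM (counts scaled to library size) on a log axis, with FK866 libraries in red to the left of control libraries in dark blue. Points are single libraries, bars are group means, and grey lines separate kinases, phosphatase subunits, transcription factors and output genes. The groups lie apart for 8 genes and overlap for Eif2ak4 and Ppp1r15b.

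Library totals ran from 27617750 to 37841233 counts. FK866 replicate 2 stood apart, with 22461 gene IDs at 10 or more counts against 17152 to 18667 in the other 3 libraries. All 12 ILC2 markers examined were detected, including Gata3, Il1rl1 and Ptprc, and their summed level was 5285 and 4398 CPM in FK866 libraries, against 6406 and 6561 CPM in control libraries. The summed marker levels in FK866 libraries, against control libraries, were 20.99 and 20.70 against 19.8 and 19.6 CPM for 6 T cell genes, 1.11 and 2.38 against 0.275 and 0.706 CPM for 4 B cell genes, and 5.08 and 4.26 against 1.32 and 2.67 CPM for 5 myeloid genes. In the same order they were 0.408 and 0.882 against 0.138 and 0.951 CPM for 5 mast cell genes, 27.0 and 39.3 against 42.1 and 55.2 CPM for 5 epithelial genes, 227.6 and 189.9 against 182.4 and 143.6 CPM for 4 stromal genes, and 224.5 and 83.3 against 270.5 and 153.0 CPM for 6 NK cell and ILC3 genes. Among the epithelial genes Krt8 was at 0 in all 4 libraries and Epcam gave most of the sum, Pecam1 most of the stromal sum and Il22 most of the NK cell and ILC3 sum. The T cell, B cell, myeloid and stromal sums were higher in both FK866 libraries than in both control libraries, and the ILC2 and epithelial sums were lower. The mast cell sum and the NK cell and ILC3 sum overlapped between groups. Within the NK cell and ILC3 list Il23r was called higher (log2 fold change 2.05, edgeR adjusted p = 0.0172), and no other gene of it was called. Among the ILC2 markers Il13, Icos and Id2 were called lower (log2 fold changes -1.49, -0.84 and -0.89), and no other was called. The part of these marker levels in the values below was not tested. In such bulk samples a lower share of cells that hold a transcript and less of it per cell cannot be told apart.

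The 250 bases upstream of the annotated start are shown for the 5 called genes, because these genes rose in the same libraries and ATF4, CHOP and their partners are known to bind promoters. The sequences are RefSeq's for GRCm38.p6 and are written 5′ to 3′ on the strand of the gene, with capitals for matches to the letters TGATGNAA (a C/EBP-ATF element), TGACGTCA (the palindromic cAMP response element), TGACG (its half-site, which is contained in the palindrome) or the endoplasmic reticulum stress element, searched on both strands. The windows were chr7:45526269-45526518 on the minus strand for Ppp1r15a, chr15:80254934-80255183 on the plus strand for Atf4, chr10:127290543-127290792 on the plus strand for Ddit3, chr2:152344061-152344310 on the minus strand for Trib3 and chr2:119350992-119351241 on the plus strand for Chac1.
Ppp1r15a: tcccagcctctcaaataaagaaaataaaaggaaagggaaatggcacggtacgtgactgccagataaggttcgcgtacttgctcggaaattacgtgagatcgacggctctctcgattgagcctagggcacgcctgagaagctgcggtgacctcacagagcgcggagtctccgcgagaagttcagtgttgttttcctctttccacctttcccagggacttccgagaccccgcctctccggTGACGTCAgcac
Atf4: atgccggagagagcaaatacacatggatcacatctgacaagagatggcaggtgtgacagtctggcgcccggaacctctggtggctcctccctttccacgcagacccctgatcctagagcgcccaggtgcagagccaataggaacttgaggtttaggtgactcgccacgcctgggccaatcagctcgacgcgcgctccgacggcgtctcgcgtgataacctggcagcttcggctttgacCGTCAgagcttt
Ddit3: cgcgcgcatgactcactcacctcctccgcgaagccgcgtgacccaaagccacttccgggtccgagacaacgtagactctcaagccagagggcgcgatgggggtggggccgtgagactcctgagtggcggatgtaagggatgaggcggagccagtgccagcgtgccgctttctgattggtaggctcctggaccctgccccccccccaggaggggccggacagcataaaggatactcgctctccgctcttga
Trib3: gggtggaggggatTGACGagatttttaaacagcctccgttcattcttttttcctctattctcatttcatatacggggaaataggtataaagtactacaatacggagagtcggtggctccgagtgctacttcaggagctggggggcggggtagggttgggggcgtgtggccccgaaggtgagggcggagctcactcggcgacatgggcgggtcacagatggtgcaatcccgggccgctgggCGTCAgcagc
Chac1: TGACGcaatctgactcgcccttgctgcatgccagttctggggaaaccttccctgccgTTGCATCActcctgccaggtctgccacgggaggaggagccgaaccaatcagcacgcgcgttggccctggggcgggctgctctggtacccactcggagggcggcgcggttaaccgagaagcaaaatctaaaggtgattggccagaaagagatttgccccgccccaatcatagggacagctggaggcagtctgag
The Chac1 window held the C/EBP-ATF letters on its minus strand, 186 to 193 bases upstream of the start, and a half-site at its far end, 246 to 250 bases upstream. The Ppp1r15a window held the palindrome 5 to 12 bases upstream. Half-site letters also stood in the Trib3 window, 6 to 10 and 233 to 237 bases upstream, and in the Atf4 window, 8 to 12 bases upstream, while the Ddit3 window matched none of the 4 motifs. Of 32851 promoter windows of this length, 3.45% held the C/EBP-ATF letters, 1.55% the palindrome, 17.8% the half-site and 0.113% the stress element, and these motifs were settled after the promoters had been looked at. Windows were found for 9 of the 10 genes, 11 windows in all, and the other matches among them were 1 half-site in a second Eif2ak4 window, 30 to 34 bases upstream. A match is a description of letters, not a binding site.

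The kinase genes were expressed in every library at levels that differed little between groups. Eif2ak1 (ENSMUSG00000029613, GRCm38 chromosome 5, 143817788 to 143904251, plus strand), which encodes HRI, had 115.7 and 107.6 CPM in FK866 replicates 1 and 2, against 97.4 and 89.9 CPM in control replicates 1 and 2. Both FK866 libraries lay above both controls, but the log2 fold change of 0.25 ± 0.13 (SE) did not pass (edgeR adjusted p = 0.262), with a 95% interval of -0.05 to 0.56. Of its exon bases, 8.59% are shared with an exon of Aimp2 on the other strand, and Aimp2, a scaffold protein of the tRNA synthetase complex, fell by 0.72 on the log2 scale (edgeR adjusted p = 0.0282). The libraries do not mark the strand, so reads from the shared bases cannot be told apart.

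Eif2ak3 (ENSMUSG00000031668, chromosome 6, 70844515 to 70905245, plus strand), which encodes PERK, stood at 24.3 and 26.2 CPM in FK866 libraries, against 21.6 and 20.8 CPM in control libraries. Its groups lay apart by little, and its log2 fold change was 0.25 ± 0.18 (SE, edgeR adjusted p = 0.414), with a 95% interval of -0.16 to 0.66. Of its exon bases, 8.05% overlap an unconfirmed transcript, Gm43292, on the other strand, which had 35 counts in each FK866 library against 8 and 10 in control replicates 1 and 2.

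Eif2ak4 (ENSMUSG00000005102, chromosome 2, 118388618 to 118475234, plus strand), which encodes GCN2, had 23.1 and 27.3 CPM in FK866 libraries, against 30.9 and 24.1 CPM in control libraries. These values overlap, and the log2 fold change was -0.12 ± 0.20 (SE, edgeR adjusted p = 0.755), with a 95% interval of -0.58 to 0.33. Each of the 3 intervals excludes a 2-fold change in either direction, and none shows that the kinase transcripts were equal in the 2 groups.

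Per kilobase of exon, Eif2ak1 made up most of the transcript signal of the 3 kinases, 74.1% and 70.3% of their sum in FK866 libraries, against 69.0% and 70.4% in control libraries. The share of Eif2ak4 was 11.3% and 13.6% in FK866 libraries, against 16.6% and 14.3% in control libraries, so its groups lay apart. With 2 libraries a group, no exact permutation test on such a ratio can go below p = 0.333, and none is given.

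Of the phosphatase subunits, the inducible one was called higher and the constitutive one was not called. Ppp1r15a (ENSMUSG00000040435, chromosome 7, 45522916 to 45526268, minus strand), which encodes GADD34, the stress-inducible subunit that brings protein phosphatase 1 to eIF2α, had 107.8 and 98.2 CPM in FK866 libraries, against 41.4 and 38.7 CPM in control libraries. Every FK866 library was more than 2-fold above every control library, and replicates of a group differed by at most 1.10-fold. Its log2 fold change was 1.36 ± 0.14 (SE, edgeR adjusted p = 0.0015), or 2.57-fold with a 95% interval of 2.05 to 3.23. This was the smallest adjusted p among the 10 genes, and the 275th largest rise among the 1020 genes called higher.

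Ppp1r15b (ENSMUSG00000046062, chromosome 1, 133131143 to 133139783, plus strand), which encodes CReP, the constitutive counterpart, had 107.2 and 98.3 CPM in FK866 libraries, against 114.9 and 86.1 CPM in control libraries. The FK866 values lay between the 2 control values. The log2 fold change was 0.03 ± 0.17 (SE, edgeR adjusted p = 0.935), with a 95% interval of -0.35 to 0.41. Per kilobase of exon, the ratio of Ppp1r15a to Ppp1r15b was 1.917 and 1.902 in FK866 libraries, against 0.686 and 0.857 in control libraries, so the inducible subunit was the more abundant transcript in FK866 libraries and the less abundant one in controls. Of the exon bases of Ppp1r15b, 11.4% overlap an unconfirmed transcript on the other strand that held at most 11 counts in any library.

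Atf4 (ENSMUSG00000042406, chromosome 15, 80255184 to 80257541, plus strand), the transcription factor whose translation the pathway raises, was the most abundant transcript of the 10 per kilobase. It had 314.1 and 262.8 CPM in FK866 libraries, against 207.0 and 202.1 CPM in control libraries. Both FK866 libraries lay above both controls. Its log2 fold change was 0.50 ± 0.14 (SE), or 1.41-fold with a 95% interval of 1.14 to 1.75, and its edgeR adjusted p of 0.0458 was near the threshold. Without FK866 replicate 1, the higher of the pair, the log2 fold change was 0.27 and was not called (edgeR adjusted p = 0.523), and with no filter on low counts it was 0.46 and not called (edgeR adjusted p = 0.281). Over 13 alternatives its adjusted p ran from 2.555e-07 to 0.523, and 11 of them called it.

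Atf5 (ENSMUSG00000038539, chromosome 7, 44812256 to 44816658, minus strand), a relative of ATF4 that in mammals is linked to the mitochondrial stress response, was barely detected, with 12 and 14 counts in FK866 libraries and 10 and 9 counts in control libraries. That is 0.445 and 0.412 CPM against 0.275 and 0.276 CPM. Exact Poisson intervals for these counts, which cover counting error only, ran from 6.20 to 20.96 and from 7.65 to 23.5 in FK866 libraries, and from 4.795 to 18.4 and from 4.12 to 17.1 in control libraries, and overlap. The log2 fold change of 0.63 ± 1.02 (SE, edgeR adjusted p = 0.757) had a 95% interval of -1.68 to 2.94, which includes a 2-fold change in either direction, so a difference was not detectable at this depth. Of its exon bases, 4.11% overlap Nup62 and Il4i1 on the other strand, and Il4i1 rose by 2.66 on the log2 scale (edgeR adjusted p = 0.0305).

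Ddit3 (ENSMUSG00000025408, chromosome 10, 127290774 to 127296288, plus strand), which encodes CHOP, had 34.6 and 30.3 CPM in FK866 libraries, against 13.9 and 12.6 CPM in control libraries. The groups lay well apart, and replicates differed by at most 1.14-fold. The log2 fold change was 1.29 ± 0.19 (SE, edgeR adjusted p = 0.00517), or 2.45-fold with a 95% interval of 1.81 to 3.31. A second gene ID carries the same symbol and covers 105 exon bases that all lie within exons of Ddit3, and it held 0 counts in the 4 libraries. A further 3.97% of the exon bases overlap the end of Mars on the other strand, a gene with a log2 fold change of 0.01 (edgeR adjusted p = 0.988).

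Trib3 (ENSMUSG00000032715, chromosome 2, 152337422 to 152344032, minus strand), which encodes a pseudokinase that binds ATF4 and CHOP and is induced by them, had 18.3 and 14.2 CPM in FK866 libraries, against 5.73 and 2.09 CPM in control libraries. Every FK866 library exceeded every control, while the 2 controls differed by 2.74-fold, the widest spread of any group among the 10 genes. Its log2 fold change was 2.05 ± 0.43 (SE, edgeR adjusted p = 0.0171), or 4.14-fold with a 95% interval of 2.11 to 8.10. It was 2.86 without control replicate 1 and 1.501 without control replicate 2, and all 13 alternatives called it, with adjusted p from 2.796e-12 to 0.0212.

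Chac1 (ENSMUSG00000027313, chromosome 2, 119351229 to 119354381, plus strand), which encodes an enzyme that degrades glutathione, had 5.41 and 2.4996 CPM in FK866 libraries, against 0.826 and 1.10 CPM in control libraries. These rest on 146 and 85 counts in FK866 libraries and on 30 and 36 counts in control libraries. The groups lay apart, but the FK866 replicates differed by 2.17-fold. The log2 fold change was 2.03 ± 0.51 (SE, edgeR adjusted p = 0.0327), or 4.08-fold with a 95% interval of 1.84 to 9.07. Without FK866 replicate 1 it was 1.28 and was not called (edgeR adjusted p = 0.275), and over 13 alternatives the adjusted p ran from 0.00044 to 0.275, with 12 calls.

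**Figure D2:**
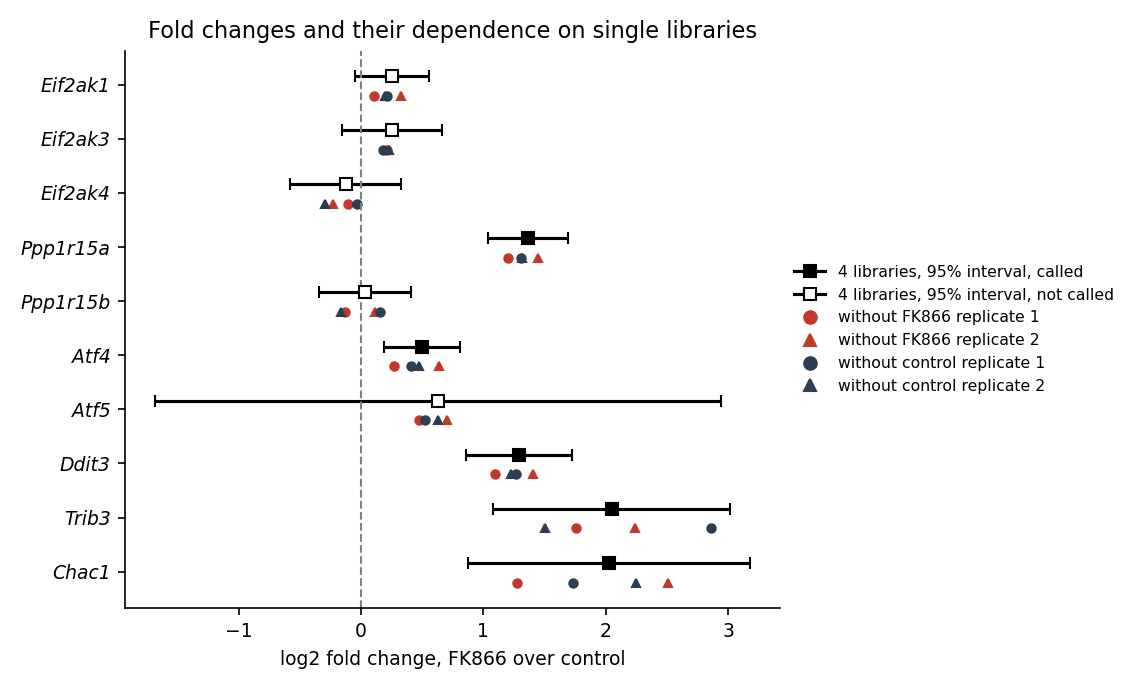
Log2 fold change of each gene, FK866 over control. Squares with bars are the fit to 4 libraries with its 95% interval, filled where the gene was called, and the smaller points below each square are the fits without 1 library. Trib3 ran from 1.501 to 2.86 and Chac1 from 1.28 to 2.51 as single libraries were left out, while Ppp1r15a stayed between 1.20 and 1.45 and Ddit3 between 1.10 and 1.41.

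Levels per kilobase of exon ordered the 10 genes differently in the groups. In FK866 libraries Atf4 averaged 122.3 ± 15.4 CPM per kilobase (SD, n = 2), followed by Ppp1r15a at 35.1 ± 2.32, then Eif2ak1 at 19.7 ± 1.01, Ddit3 at 18.9 ± 1.79 and Ppp1r15b at 18.4 ± 1.12, whose libraries overlap. Below them were Trib3 at 7.65 ± 1.38, Eif2ak3 at 4.19 ± 0.23, Eif2ak4 at 3.38 ± 0.40 and Chac1 at 2.42 ± 1.26, of which the last 2 overlap, and Atf5 at 0.215 ± 0.012. In control libraries Atf4 averaged 86.7 ± 1.45 CPM per kilobase, followed by Ppp1r15b at 18.0 ± 3.65 and Eif2ak1 at 16.5 ± 0.93, which overlap. Ppp1r15a followed at 13.6 ± 0.65, Ddit3 at 7.72 ± 0.53, Eif2ak4 at 3.68 ± 0.64 and Eif2ak3 at 3.51 ± 0.09, of which the last 2 overlap, then Trib3 at 1.84 ± 1.21, Chac1 at 0.589 ± 0.12 and Atf5 at 0.138 ± 0.0003. Exon length here is the union of annotated exons, which can understate the level of a gene whose shorter isoform dominates.

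Relative to Atf4, 4 of its downstream genes stood higher in FK866 libraries. These are the other called genes of the core, and a higher ratio follows from their larger fold changes. Per kilobase, the ratio of Ddit3 to Atf4 was 0.152 and 0.159 in FK866 libraries, against 0.0923 and 0.0857 in control libraries. The ratio of Ppp1r15a to Atf4 was 0.276 and 0.300 in FK866 libraries, against 0.161 and 0.154 in control libraries. The group means of the ratio differed by 1.74-fold for Ddit3 and by 1.83-fold for Ppp1r15a, and replicates lay close together. The ratio of Trib3 to Atf4 was 0.0647 and 0.0599 in FK866 libraries, against 0.0307 and 0.0115 in control libraries. The ratio of Chac1 to Atf4 was 0.0248 and 0.0137 in FK866 libraries, against 0.00575 and 0.00787 in control libraries. All 4 ratios lay apart between the groups, and no test was made on them for the reason given for the kinase shares.

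**Figure D3:**
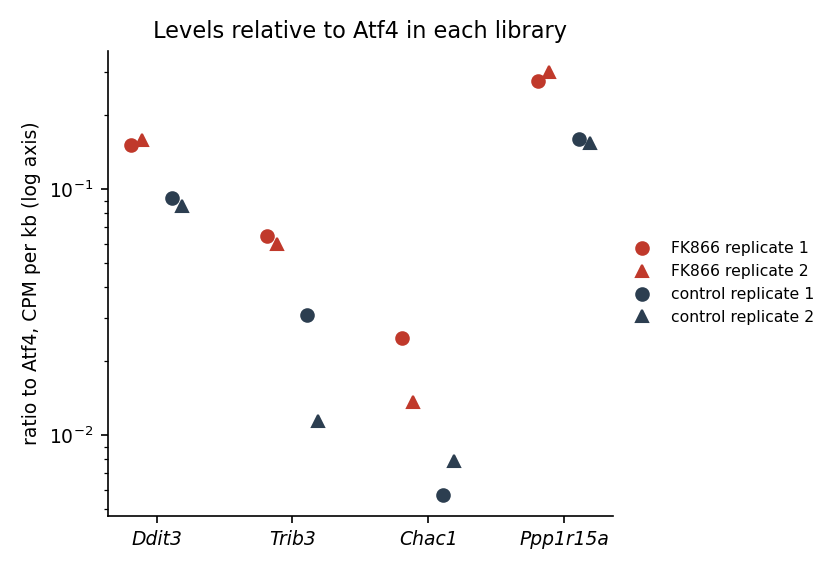
Level of 4 genes relative to Atf4 in each library, as a ratio of CPM per kilobase on a log axis, with FK866 libraries in red to the left of control libraries in dark blue. All FK866 points lie above the control points of the same gene. The nearest Chac1 points are FK866 replicate 2 at 0.0137 and control replicate 2 at 0.00787.

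Of 20 other genes of the eIF2 machinery, namely genes for eIF2 and eIF2B subunits, reinitiation factors, phosphatase 1 catalytic subunits and regulators of the kinases, 1 was called higher and 1 lower, with a median log2 fold change of -0.21. Among all genes tested, 5.31% were called higher and 7.89% lower. In 12 of the 20 both FK866 libraries lay below both controls (29.3% of all genes) and in 4 both lay above (28.4%). At an unadjusted p under 0.05 edgeR found 2 higher and 6 lower, where 12.1% of all genes were higher and 15.9% lower. Impact, which encodes an inhibitor of GCN2 activation, had 70.9 and 67.6 CPM in FK866 libraries, against 29.6 and 38.2 CPM in control libraries, a rise of 1.03 ± 0.17 (SE) on the log2 scale (edgeR adjusted p = 0.00758). Eif2d, which encodes a factor for reinitiation and noncanonical initiation, was lower in FK866 libraries (log2 fold change -0.65, edgeR adjusted p = 0.0382), a call lost without FK866 replicate 2 and with DESeq2's size factors in edgeR. Without control replicate 1 more of these genes were called lower, and so was a larger share of all genes.

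Known ATF4 targets were read from the same fit in 4 lists of 49 genes, 47 of which were tested. Of these, 12 were called higher and 1 lower, against 5.31% and 7.89% of all genes, with a median log2 fold change of 0.23. Among 12 genes of amino acid synthesis and one-carbon metabolism, 6 were higher and 1 lower (median 0.44). Pck2, mitochondrial PEPCK, had 79.4 and 74.0 CPM in FK866 libraries, against 26.8 and 20.9 CPM in control libraries, and Gpt2, an alanine aminotransferase, had 21.1 and 22.1 CPM against 5.04 and 5.89 CPM. Asns, asparagine synthetase, and Mthfd2, a mitochondrial folate enzyme, rose by 1.38 and 0.73 on the log2 scale, the second call lost without FK866 replicate 1. The other 3 called genes, named after their values were seen, were Aldh1l2 and Cth, which rose by 3.19 and 2.10 on the log2 scale, and Psph (-0.59, edgeR adjusted p = 0.0499), which was lower. Aldh1l2 had 158 and 137 counts in FK866 libraries, against 34 and 4 in control libraries, and no gene of this list was called lower under 9 of 13 alternatives.

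Among 9 amino acid transporters, 3 were higher and 0 lower (median 0.90), against 5.31% and 7.89% of all genes. The heavy chain Slc3a2 had 618.2 and 548.4 CPM in FK866 libraries, against 286.8 and 223.2 CPM in control libraries. Slc7a3, a cationic amino acid carrier, rose by 1.69 and Slc7a11, the cystine carrier, by 2.61 on the log2 scale, the Slc7a11 call being lost without FK866 replicate 2. At an unadjusted p under 0.05 edgeR found 6 transporters higher and 1 lower, where all genes gave 12.1% and 15.9%. DESeq2 called 4 and 1, where genes with an adjusted p gave 11.9% and 15.2%.

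Genes of tRNA charging gave no call. Of 13, 0 were higher and 0 lower (median 0.01), against 5.31% and 7.89% of all genes. In edgeR, 1 was higher and 2 lower at an unadjusted p under 0.05, where all genes gave 12.1% and 15.9%. These edgeR counts are near what such shares give in a list of 13. DESeq2 made 0 calls, where genes with an adjusted p gave 11.9% higher and 15.2% lower. Eprs, the most abundant, had 571.9 and 490.3 CPM in FK866 libraries, against 487.7 and 429.5 CPM in control libraries, and Gars had 493.9 and 412.4 CPM against 449.1 and 392.1 CPM. These counts depend on single libraries, since 4 of the 13 were called lower without FK866 replicate 1, 3 without control replicate 2 and 1 without control replicate 1. With the stricter filter 2 were called higher, as were 1807 of all 11047 genes tested. No test compared the lists with each other. Among 13 tested regulators and secreted factors, 3 were higher and 0 lower (median 0.24), against 5.31% and 7.89% of all genes. Atf3, a stress-induced repressor of the same leucine zipper family, had 16.8 and 24.2 CPM in FK866 libraries, against 4.79 and 4.69 CPM in control libraries. Eif4ebp1, an inhibitor of cap-dependent translation, rose by 0.89 and Nupr1, a stress-induced chromatin protein, by 1.19 on the log2 scale. For the absence of lower calls in these transporter and regulator lists, edgeR found 1 and 0 genes lower at an unadjusted p under 0.05. All genes gave 15.9%. DESeq2 called 1 and 0 lower, where genes with an adjusted p gave 15.2%.

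Of 7 genes of survival and oxidation linked to CHOP, 2 were higher and 1 lower (median -0.04), against 5.31% and 7.89% of all genes. Bcl2l11, the gene of BIM, which promotes apoptosis, had 168.7 and 180.9 CPM in FK866 libraries, against 26.0 and 28.6 CPM in control libraries. Ero1l, an oxidase of the endoplasmic reticulum, rose by 0.67 on the log2 scale, a call lost without FK866 replicate 1 and with no filter. Mcl1, which encodes a survival protein, fell by 0.77, a call lost without FK866 replicate 2. Of 6 genes named for C/EBP, which apart from Cebpz encode partners of CHOP and ATF4, 4 were tested and 0 were called. At an unadjusted p under 0.05 edgeR also found 0, where all genes gave 12.1% higher and 15.9% lower. DESeq2 called 0, where genes with an adjusted p gave 11.9% and 15.2%. With 4 genes, 0 calls cannot be told from these shares. Cebpg had 41.9 and 34.1 CPM in FK866 libraries, against 32.3 and 31.9 CPM in control libraries, and Cebpz had 105.2 and 96.5 CPM against 105.9 and 126.4 CPM.

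In the ATF6 and IRE1 arms of the unfolded protein response, which run beside PERK, 2 of 20 genes were higher and 1 lower (median 0.12). The shares over all genes were 5.31% and 7.89%. Ern1, which encodes IRE1α, had 191.2 and 152.0 CPM in FK866 libraries, against 92.3 and 70.8 CPM in control libraries. Pdia4, a disulfide isomerase, rose by 0.57 on the log2 scale, a call lost without FK866 replicate 1 and with no filter, and Sdf2l1, a chaperone cofactor, fell by 0.81. The count called higher was 7 with the stricter filter, under which 1807 of all 11047 genes tested were called higher. It was 6 once a trend on exon length and GC content was removed, where 1562 of 19194 genes were. Of 13 mitochondrial chaperones and proteases, 0 were higher and 1 was lower (median -0.06), the chaperonin Hspe1 (-0.58, edgeR adjusted p = 0.0452), a call lost under 8 of 13 alternatives. At an unadjusted p under 0.05 edgeR found 1 of these 13 higher and 3 lower, where all genes gave 12.1% and 15.9%. DESeq2 called 1 and 1, where genes with an adjusted p gave 11.9% and 15.2%.

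**Figure D4:**
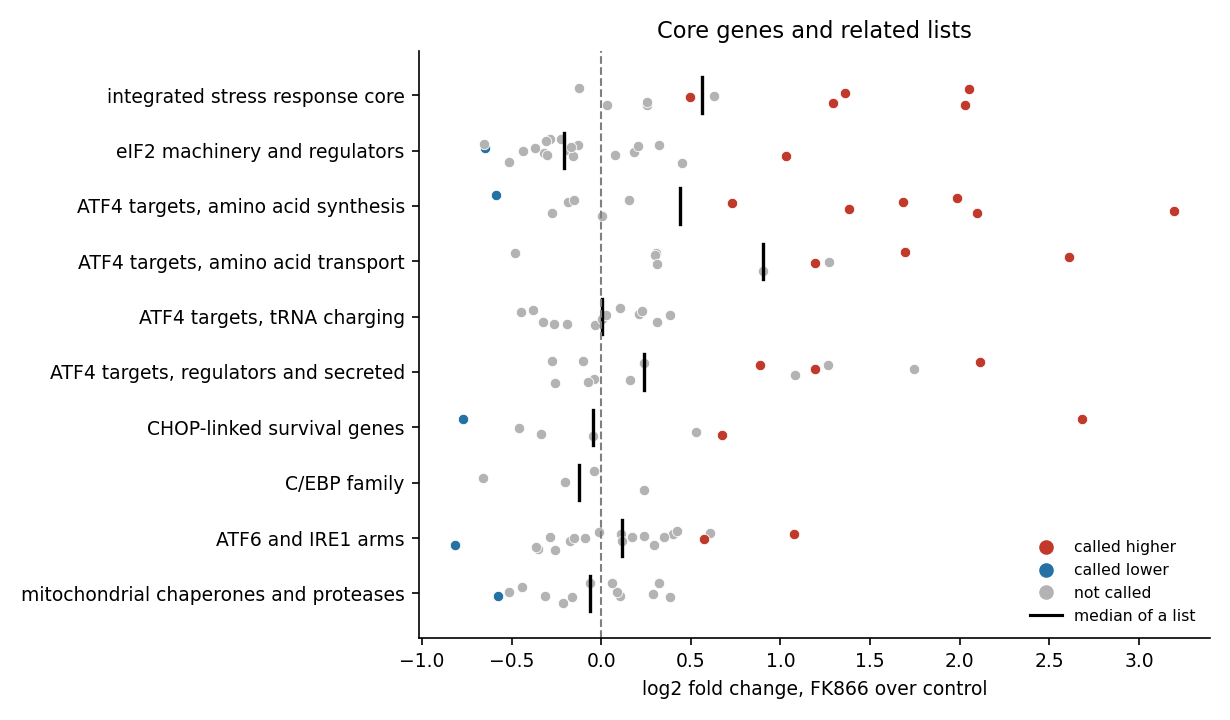
Log2 fold change, FK866 over control, of each tested gene in the core set and in 9 related lists, with 1 point per gene and a black bar at the median of each list. Red points were called higher, blue points lower and grey points were not called. Amino acid synthesis and transport hold most of the red points outside the core, and the tRNA charging points lie between -0.45 and 0.38.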

How the data were processed

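The deposited table holds raw counts per Ensembl gene ID for 4 RNA-seq libraries, and the unit was taken from the values, which are whole numbers. The tools named are HISAT2 2.2.1 and cutadapt 1.9, and the build is mm10, per the submitters' processing notes. What counted the reads, with which annotation and strand setting, is not given in the sources used here. Per the labels' protocols, TRIzol RNA was turned into SMART-Seq HT full-length cDNA and Nextera XT libraries. That chemistry does not mark the strand. Group and replicate number came from the titles.

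Symbols, positions and exon lengths came from GENCODE M21 (GRCm38). Counts were filtered with filterByExpr (minimum count 10, minimum total 15), scaled by TMM and tested two-sided in edgeR 4.0.16 with glmQLFit and glmQLFTest, with treatment as the only term and Benjamini-Hochberg adjustment over 19194 genes. CPM uses TMM-scaled totals of the filtered table. The SE was derived from each log2 fold change and its F value. Chi-square per degree of freedom between replicates was 19.0 for FK866 and 35.8 for control, above sampling noise. Each library counted as 1 sample, although this excess does not show that replicates are separate cultures or animals. The alternatives were RLE, upper-quartile and library-total scaling, DESeq2 1.42.0, no filter, a stricter filter (mean log2 CPM of at least 1), leaving out each library, the replicate number as a block, and removal of a smooth trend on exon length and GC content. The procedure was also run on simulated counts that lacked the correlation between replicates and the length trend of these data, and no result here rests on it.

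The 10 genes and the 9 related lists were chosen with earlier results of these data known. All 10 genes are named. From each related list the rule named up to 4 called genes, by smallest adjusted p, and in a list without calls the 2 with the highest level. Genes outside it are said to be so.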

Additional observations from a re-analysis of the deposited data

How the results depend on the processing

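Of the 10 core genes, 5 were called higher and 0 lower with RLE, upper-quartile or library-total scaling, with DESeq2, with either block fit and when the trend on exon length and GC content was removed. It was 4 with no filter (Atf4 was lost) and 6 with the stricter filter (Eif2ak1 was added, at 0.35). Leaving out single libraries, where the lone sample is assumed to vary like the other group, gave 3 to 5. Ppp1r15b turned negative with no filter (-0.012), and ran from -0.16 to 0.15 as single libraries were left out, below 0 without FK866 replicate 1 (-0.13) and without control replicate 2. Eprs turned negative with the trend removed (-0.099, and -0.098 with the block). Gars ran from -0.12 to 0.25 and Cebpg from -0.010 to 0.41 as single libraries were left out, both below 0 without FK866 replicate 1. The cause of these changes was not tested. Atf5 and Slc7a11 failed the stricter filter.

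Over all genes, 1020 were called higher and 1514 lower, with ranges of 661 to 1457 and 828 to 2462 as single libraries were left out. The stricter filter gave 1807 higher. Removing the trend gave 1562 higher and 1366 lower, and moved the median of all genes by 0.10 on the log2 scale. Relative to that shift, Atf4 was at 0.66, Ddit3 at 1.52, Ppp1r15a at 1.48, Trib3 at 2.28 and Chac1 at 2.24. With no filter the median was 0.24 over 45373 genes, against 0.03 over the 19194 genes of the main fit. These medians cover different genes, so their difference cannot be read as a shift of the fold changes and is not subtracted. With no filter the same genes were at 0.46, 1.25, 1.32, 2.01 and 2.01. Without control replicate 2 the median was 0.19 over 22964 genes, again a different set. In that fit the same genes were at 0.48, 1.22, 1.31, 1.501 and 2.25, also with nothing subtracted.

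The replicate number may not mark pairs, since no label ties it to a culture, animal or day. The deviations of the replicate 1 libraries from their group means correlated with r = 0.37 across 9701 genes. The replicate block gave 2197 genes higher and 3059 lower, and with the trend removed 2676 and 2434. With the block, the counts higher and lower were 2 and 9 for the eIF2 machinery, 2 lower for amino acid synthesis, 7 and 1 for transport, 2 and 4 for tRNA charging, 5 higher for regulators, 2 lower for CHOP-linked genes, 7 and 4 for the ATF6 and IRE1 arms, and 2 and 4 for mitochondrial chaperones. With the block and the trend removed they were 3 and 3 for the eIF2 machinery, 6 and 1 for transport, 3 and 4 for tRNA charging (Gars was called, at 0.28 with an edgeR adjusted p of 0.0066), 5 higher for regulators, 2 lower for CHOP-linked genes, 9 higher for the ATF6 and IRE1 arms, and 3 higher for mitochondrial chaperones.

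Other moved counts were these. For the eIF2 machinery, 2 were higher under upper-quartile or library-total scaling, DESeq2, the stricter filter or the trend removed, and the count lower was 0 with RLE and 2 with DESeq2 or no filter. For amino acid synthesis, 0 were lower under the 3 scalings, either filter or the trend removed. For transport, 5 were higher with the stricter filter or the trend removed, and 1 was lower with DESeq2 or the trend removed. For tRNA charging, 2 were higher with the stricter filter and 1 higher and 1 lower with the trend removed. For CHOP-linked genes, 1 was higher with no filter. For the ATF6 and IRE1 arms, the count higher was 4 with DESeq2, 1 with no filter, 7 with the stricter filter and 6 with the trend removed. For mitochondrial chaperones, the count lower was 0 under the 3 scalings, with no filter or with the trend removed, and the count higher was 1 with library totals or DESeq2, 3 with the stricter filter and 2 with the trend removed.

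Leaving out single libraries gave 0 to 8 lower for the eIF2 machinery, 0 to 1 lower for amino acid synthesis, 2 to 6 higher and 0 to 1 lower for transport, 0 to 4 lower for tRNA charging, 3 to 5 higher for regulators, 1 to 3 higher and 0 to 2 lower for CHOP-linked genes, 1 to 2 lower for the ATF6 and IRE1 arms, and 0 to 4 lower for mitochondrial chaperones. Atf5 rests on 9 to 14 counts a library. The Poisson intervals of the Chac1 counts in the FK866 replicates (123.3 to 171.7 and 67.9 to 105.1) do not overlap, so these libraries differed by more than counting error.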
